A study of Mus musculus with 6 samples.

Results

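Intergenic windows rich in acetylation of histone H4 at lysine 5 (H4K5ac) were examined in the mouse hippocampus. The members were 1 kb windows of chromosomes 1 to 19 that lay at least 10 kb from any gene of the GENCODE annotation of mm9, the genome build of the reads. A window was kept when the H4K5ac-ChIP libraries together held 45 or more reads in it and when the H4K5ac-ChIP reads, scaled to library size, were at least 2 times those of input in each group. Of 2472334 windows, 1133868 lay that far from a gene, 43863 of these held 45 or more pooled reads, and 6817 met the whole rule. Adjacent windows were merged into 4775 regions.

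Acetylation of the histone H4 tail neutralises the charge of lysine, loosens the contact between histone and DNA and provides a docking site for bromodomain proteins. H4K5ac is known as a mark of active promoters and transcribed gene bodies, and it is also found with other acetyl marks at enhancers, which are regulatory sequences that can lie far from the gene they act on. The hippocampus is the part of the brain needed to remember a place in which something aversive happened.

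The study asked where H4K5ac lies in the genome after such a memory has formed. C57/BL6 mice, labelled as 6 months old, were trained by contextual fear conditioning, in which a foot shock is paired with a place (FC), or saw the same place without the shock (CON). Whole hippocampal chromatin, a mixture of neurons and other cells, was precipitated with an antibody to H4K5ac or with non-specific IgG, and a part was sequenced without precipitation as input. The series holds 6 libraries, 1 for each group and kind, so no spread between animals could be measured, no test between groups was possible, and a change of acetylation per cell cannot be told apart from a change in the number of acetylated cells.

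The libraries held 14549689 to 45673239 aligned reads, of which 11953514 to 39283801 remained when 1 read was kept per 5′ position and strand. Levels are given as rpm, the reads that a library of 1000000 distinct reads would hold. Intervals are exact 95% limits that cover counting error only. Gene bodies gave a check of the tissue. With 2 kb on each side, 11 of 13 neuronal marker genes had more H4K5ac-ChIP than input in FC and 11 of 13 in CON, with a median ratio of 1.30 in FC and 1.49 in CON, whereas 15 genes of liver, muscle, heart, pancreas, skin and blood had medians of 0.694 and 0.979. Of these 15, 4 in FC and 7 in CON also had more H4K5ac-ChIP than input, with Apoa2 at 2.12 and Acta1 at 1.83 in CON, so the lists overlapped.

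The sequences below come from the regions on which the description turns. They were read from mm9 on the forward strand, cover 300 bases around the highest point of pooled H4K5ac coverage, and carry in capitals every match to the 10 short motifs searched, of which only the E-box letters CAGCTG, the neuronal E-box letters CAGATG and the homeobox letters TAATTA were present, on either strand. The first is the region with the most reads per kb (chr10:40235680-40235979), the next the densest region of several windows (chr10:59437705-59438004), the third the widest region (chr9:25010702-25011001), the fourth a wide region between Mef2c and Tmem161b (chr13:84198528-84198827) and the fifth the region farthest from any annotated gene (chr1:76388657-76388956).
Region near Cdk19: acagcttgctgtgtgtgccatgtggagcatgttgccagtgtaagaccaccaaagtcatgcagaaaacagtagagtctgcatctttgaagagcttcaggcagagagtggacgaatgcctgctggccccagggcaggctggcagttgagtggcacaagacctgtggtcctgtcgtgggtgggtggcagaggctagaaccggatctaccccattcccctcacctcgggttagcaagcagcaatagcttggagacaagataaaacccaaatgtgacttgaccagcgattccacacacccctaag
Region between Ddit4 and Anapc16: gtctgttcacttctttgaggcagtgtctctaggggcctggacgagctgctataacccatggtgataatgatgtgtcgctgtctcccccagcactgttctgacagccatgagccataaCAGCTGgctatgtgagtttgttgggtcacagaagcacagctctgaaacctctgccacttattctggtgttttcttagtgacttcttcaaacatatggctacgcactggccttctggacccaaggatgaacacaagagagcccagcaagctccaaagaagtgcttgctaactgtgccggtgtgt
Region between Herpud2 and Sept7: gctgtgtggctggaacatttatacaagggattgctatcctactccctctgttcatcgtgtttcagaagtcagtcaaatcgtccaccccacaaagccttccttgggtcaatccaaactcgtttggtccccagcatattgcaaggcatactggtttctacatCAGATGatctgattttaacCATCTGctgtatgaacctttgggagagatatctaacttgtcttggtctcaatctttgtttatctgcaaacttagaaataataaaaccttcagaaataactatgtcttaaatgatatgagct
Region between Mef2c and Tmem161b: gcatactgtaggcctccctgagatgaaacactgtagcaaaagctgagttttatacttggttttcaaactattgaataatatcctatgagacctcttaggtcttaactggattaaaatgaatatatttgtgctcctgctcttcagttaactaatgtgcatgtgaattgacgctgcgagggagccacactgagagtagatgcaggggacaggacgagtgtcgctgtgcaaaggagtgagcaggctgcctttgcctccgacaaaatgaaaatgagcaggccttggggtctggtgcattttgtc
Region between Slc4a3 and Epha4: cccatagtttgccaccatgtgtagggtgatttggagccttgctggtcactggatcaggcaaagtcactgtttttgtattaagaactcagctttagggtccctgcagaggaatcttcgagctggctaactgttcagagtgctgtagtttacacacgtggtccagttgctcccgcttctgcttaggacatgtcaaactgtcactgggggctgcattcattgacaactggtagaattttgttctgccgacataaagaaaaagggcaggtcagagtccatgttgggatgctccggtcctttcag

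The extremes of FC against CON among regions of 100 or more pooled reads are shown in the same way, the largest at chr19:42568544-42568843 and the smallest at chr8:55921262-55921561. The first stretch is richer in G and C (48.7%) than the second (41.3%).
Region between Crtac1 and D19Ertd386e, highest FC over CON: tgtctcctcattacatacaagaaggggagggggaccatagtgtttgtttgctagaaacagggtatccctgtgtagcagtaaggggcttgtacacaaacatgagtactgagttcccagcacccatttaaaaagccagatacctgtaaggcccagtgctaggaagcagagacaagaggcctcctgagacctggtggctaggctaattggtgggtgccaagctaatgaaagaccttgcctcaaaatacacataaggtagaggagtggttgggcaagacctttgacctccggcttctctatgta
Region between Wdr17 and Gpm6a, lowest FC over CON: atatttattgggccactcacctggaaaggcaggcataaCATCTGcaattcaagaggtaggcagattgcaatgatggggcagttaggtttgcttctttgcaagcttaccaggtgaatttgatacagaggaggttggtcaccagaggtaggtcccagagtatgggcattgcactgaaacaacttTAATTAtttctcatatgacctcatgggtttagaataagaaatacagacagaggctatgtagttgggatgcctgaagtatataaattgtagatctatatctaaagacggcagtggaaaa

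Some regions held transcription start sites that a later annotation, RefSeq, places there. The following 3 run in the direction of the gene, and capitals mark the first 50 transcribed bases after 250 bases of promoter. They lie at chr2:67403496-67403795 (B3galt1, a galactosyltransferase, forward strand), chr9:31839638-31839937 (Arhgap32, a GTPase-activating protein of neurons, forward strand) and chr13:54397675-54397974 (Cplx2, complexin 2, which controls the fusion of synaptic vesicles, forward strand).
B3galt1: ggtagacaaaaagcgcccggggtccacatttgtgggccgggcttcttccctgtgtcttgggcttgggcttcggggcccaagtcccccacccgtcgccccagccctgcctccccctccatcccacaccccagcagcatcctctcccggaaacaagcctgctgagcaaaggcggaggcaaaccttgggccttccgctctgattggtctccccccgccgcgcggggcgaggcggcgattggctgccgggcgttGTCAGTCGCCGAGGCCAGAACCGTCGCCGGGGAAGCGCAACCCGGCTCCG
Arhgap32: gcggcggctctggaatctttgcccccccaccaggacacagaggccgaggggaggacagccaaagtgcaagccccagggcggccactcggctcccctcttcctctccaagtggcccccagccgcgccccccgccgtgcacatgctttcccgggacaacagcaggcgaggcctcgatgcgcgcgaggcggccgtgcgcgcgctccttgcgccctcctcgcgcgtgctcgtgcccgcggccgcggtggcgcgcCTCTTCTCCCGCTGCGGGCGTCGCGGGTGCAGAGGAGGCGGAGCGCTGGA
Cplx2: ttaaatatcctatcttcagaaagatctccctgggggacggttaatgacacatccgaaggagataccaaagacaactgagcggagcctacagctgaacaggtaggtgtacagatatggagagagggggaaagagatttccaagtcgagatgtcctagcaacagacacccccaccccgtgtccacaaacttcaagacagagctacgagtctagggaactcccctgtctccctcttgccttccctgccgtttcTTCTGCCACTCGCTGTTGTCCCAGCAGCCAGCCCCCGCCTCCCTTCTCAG
The Arhgap32 start held 38 CpG dinucleotides in 300 bases, the B3galt1 start 26 and the Cplx2 start 9.

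The values that chose the members are given first, as a description. In the 6817 windows H4K5ac-ChIP held 1.28 rpm per kb in FC (95% interval 1.28–1.29) and 1.18 in CON (1.18–1.18), and the whole of the sequenced intergenic space held 0.271 and 0.272. Input held 0.488 in FC and 0.413 in CON. The median member held 34 reads of the FC and 36 of the CON H4K5ac-ChIP library, against 19 and 12 of the input libraries. At these reads the ratio to input was 2.60 in FC (1.44–4.82) and 2.86 in CON (1.46–6.05), so that a single window was placed above or below the required ratio with wide error. Windows of 45 or more pooled reads met the ratios in 15.5% of cases.

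The edges of the rule were thin. The rule was met by 104 windows of exactly 45 pooled reads, and 99 windows of 44 reads passed both ratios and were left out. Just inside the FC ratio lay chr14:65762001-65763000, with 51 FC and 54 CON H4K5ac reads and a ratio of 2.00, and chr16:18172001-18173000 with 51 and 40 reads and the same ratio. Just outside lay chr1:20867001-20868000, with 22 and 31 reads and an FC ratio of 1.997. More windows passed the CON ratio alone (13385) than the FC ratio alone (5437).

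IgG-IP took no part in the rule and stood slightly above its intergenic level at the members. The FC IgG library held 0.430 rpm per kb in the members and 0.406 in all intergenic windows, a ratio of 1.06 (1.05–1.07), and the CON IgG library held 0.444 and 0.398, a ratio of 1.12 (1.11–1.13). Against intergenic windows of the same GC content these ratios were 1.12 and 1.16. H4K5ac over IgG, from summed reads, was 2.98 in FC (2.95–3.02) and 2.65 in CON, and over the whole intergenic space it was 0.667 and 0.684. The rule asks for many H4K5ac reads, which by itself favours a high ratio to IgG. In intergenic windows of 45 or more pooled reads that failed a ratio to input, the windows most like the members, H4K5ac over IgG was 2.03 in FC and 1.93 in CON. IgG itself was higher in those windows than in the members, at 0.466 rpm per kb in FC and 0.478 in CON. Input, which the rule holds down, was at 1.40 times its intergenic level in FC members and at 1.07 times in CON members. Against intergenic windows of the same GC content input was at 1.05 times in both FC and CON. The plot of levels by library sets the 6 libraries side by side.

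**Figure D1:**
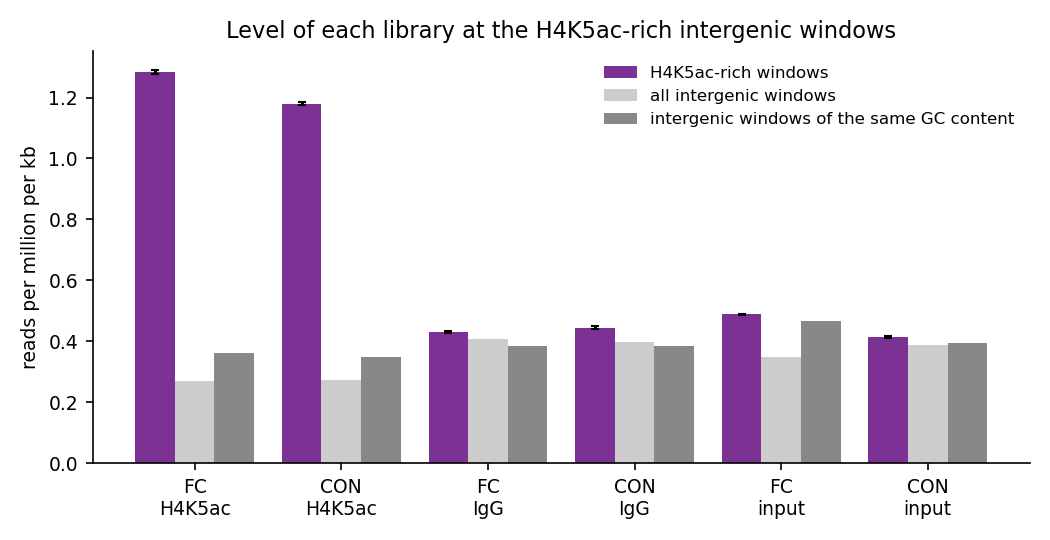
Level in rpm per kb (y axis) of the 6 libraries (x axis) in the 6817 H4K5ac-rich windows, in all sequenced intergenic windows and in those windows weighted to the members' GC content. Bars are means over windows and the error bars on the first bar of each library are exact 95% counting limits. H4K5ac-ChIP stands at 1.28 (FC) and 1.18 (CON) in the members, and IgG-IP at 0.430 and 0.444.

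H4K5ac-ChIP reads at the members had a high score more often than those over the intergenic space, and so, by less, did input and IgG-IP reads. The score was taken as that of the alignment, which the sources used here do not state. For H4K5ac-ChIP the share with a score of 20 or more was 95.4% in FC and 95.9% in CON, beside 89.0% and 90.9% over the intergenic space. For input it was 91.4% and 93.0%, beside 88.4% and 91.5%. For IgG-IP it was 91.0% and 92.3%, beside 90.1% and 91.2%. Of the H4K5ac-ChIP reads at the members 50.1% (FC) and 50% (CON) mapped to the forward strand. H4K5ac-ChIP reads repeated at the same position and strand made 15% and 11.7% of the total, beside 13.8% and 11%.

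H4K5ac was also raised around the windows. Within 500 bp of the region centre H4K5ac stood at 4.55 times the intergenic mean in FC and 4.15 times in CON, a height above the surroundings that the rule itself favours. At 4 to 5 kb from the centre it was 2.81 times the mean in FC and 2.76 times in CON. Of these flanks 10% lay in other member windows, and 82.5% lay in intergenic windows that were no members. In the latter, a part set aside after the values were seen, H4K5ac was at 2.53 times the mean in both FC and CON, and IgG at 1.03 times its own mean in FC and 1.07 times in CON. In the same flanks input was at 1.45 times its own mean in FC and 1.16 times in CON. Input was lower at the centre (1.38 and 1.06 times) than at 1 to 2 kb (1.54 and 1.19 times), a dip that the rule favours, since it asks for little input. The plot of levels around the regions shows the centre and the flanks, member windows included.

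**Figure D2:**
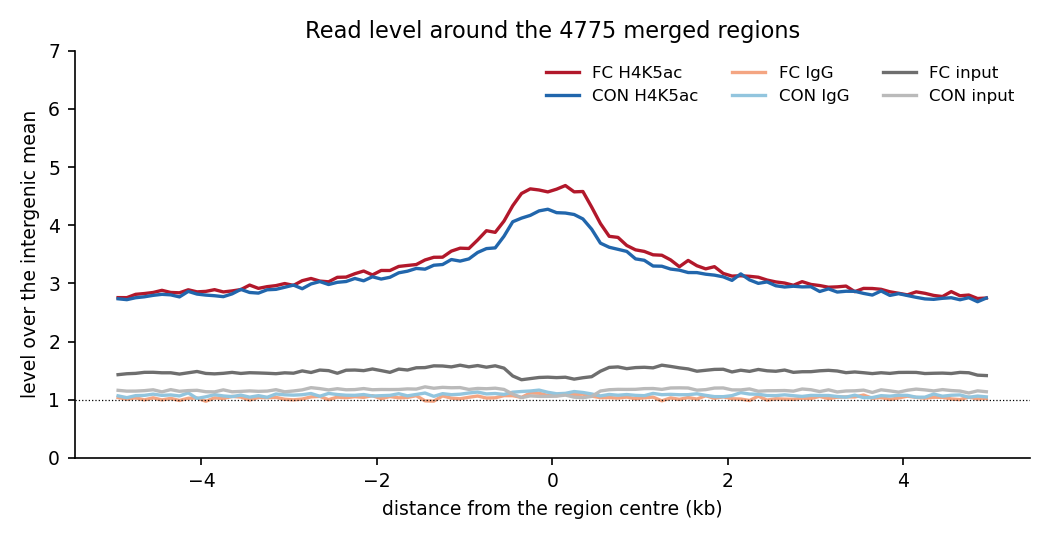
Level of each library over its own intergenic mean (y axis) by distance from the region centre in kb (x axis), in bins of 100 bp, averaged over the 4775 regions. H4K5ac stands at 4.55 (FC) and 4.15 (CON) within 500 bp and at 2.81 and 2.76 at 4 to 5 kb, the means of IgG within 500 bp, at 1 to 2 kb and at 4 to 5 kb lie between 1.02 and 1.13, and input dips at the centre.

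Most regions were a single window (3576 of 4775, 74.9%), 89 spanned 5 or more windows and the widest spanned 14. In regions of 5 or more windows H4K5ac at the centre was 6.34 times the intergenic mean in FC and 5.55 times in CON, and 4.03 and 3.91 times at 4 to 5 kb, a distance that the widest regions reach themselves. The position of the highest coverage within a region was compared between the H4K5ac-ChIP libraries. In regions of 1 window these summits lay a median of 239 bp apart and within 150 bp of each other in 1281 of 3576 (35.8%). The pooled H4K5ac summit lay within 150 bp of the pooled input summit in a similar share, 34.8%. At this depth positions finer than the window were not resolved.

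The regions came in groups along the chromosome. The median gap between neighbours was 21 kb, and 1957 of 4756 gaps (41.1%) were 10 kb or less. Joining regions across such gaps gave 2818 groups, and 59.2% of regions shared a group with another. The 134 groups of 5 or more regions held 991 regions.

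The largest group spanned 144 kb at chr7:72527001-72671000, 10.9 kb from Tjp1, which encodes the tight junction scaffold ZO-1, and held 32 regions of 62 windows. Reads of a group were summed over its member windows, and the gaps between them were left out. In the member windows of this group H4K5ac over input was 2.71 in FC and 3.26 in CON, from 2377 and 2737 reads. FC over CON was 1.02 (0.967–1.08). The second, chr12:8362001-8492000, held 21 regions of 60 windows between Hs1bp3 and Rhob, a small GTPase, with 2581 FC and 2753 CON reads. The third, chr9:24973001-25038000, held 12 regions of 45 windows between Herpud2 and Sept7, a septin of the cytoskeleton, with 1667 and 1985 reads and FC over CON of 0.988 (0.926–1.06). A group of 18 regions and 35 windows, chr8:129160001-129246000, lay between Irf2bp2, a transcriptional corepressor, and Tomm20, a subunit of the mitochondrial import receptor, with 1545 and 1520 reads and 95% limits of FC over CON of 1.11 and 1.28. In the member windows of these 4 groups H4K5ac stood between 2.57 and 3.31 times input in both FC and CON. The rule asked for at least 2 times input in each of these windows, so the values are a description.

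The 10 densest regions by reads per kb spanned 1 or 2 windows, apart from one of 6 and one of 5 windows. The first, chr10:40235001-40236000, lay 31.4 kb from Cdk19, a kinase of the Mediator complex, and held 84 FC and 54 CON H4K5ac reads, 5 and 7 IgG reads, and 36 and 20 input reads. The second, chr13:103359001-103360000, lay 124 kb from Cd180, a Toll-like receptor homologue, with 60 and 69 H4K5ac reads against 10 and 5 of IgG and 24 and 15 of input. The third spanned 6 windows, chr10:59432001-59438000, between Ddit4, an inhibitor of mTOR signalling, at 17.5 kb and Anapc16, a subunit of the anaphase-promoting complex, at 12.7 kb. It held 379 and 360 H4K5ac reads, 21 and 33 IgG reads, and 146 and 79 input reads, so that H4K5ac was 3.77 times input in FC (3.11–4.59) and 4.35 times in CON (3.40–5.62).

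The other dense regions lay near Tm7sf4 and Rims2, an active zone protein of the synapse, near Ubash3b, beside the proto-oncogene Ski, near Rpl10-ps3, near Gm6724, near Serp2 and near Tbx19. They held 117 to 122 pooled reads per kb, and IgG in each was between 0.293 and 0.920 rpm per kb. In all 10 of the densest regions H4K5ac stood above IgG in both groups, from 2.25 to 8.21 times in FC and from 2.62 to 6.14 times in CON. These regions were ranked by their H4K5ac reads, which favours such ratios, so the values are a description.

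The widest regions were runs of 11 to 14 adjacent windows that each met the rule. The region of 14 windows at chr9:25007001-25021000, between Herpud2 and Sept7, held 517 FC and 630 CON H4K5ac reads, or 1.37 and 1.41 rpm per kb, with IgG at 0.335 and 0.383. The region of 13 windows at chr12:8436001-8449000, 55.6 kb from Rhob, held 608 and 674 reads. Another of 13 windows at chr14:106023001-106036000, 29.9 kb from 9330188P03Rik, held 470 and 552, and the RefSeq start of the long non-coding RNA Gm6145 lay inside it. A region of 12 windows, chr13:84196001-84208000, lay 389 kb from Mef2c, a transcription factor that controls synapse number, and 154 kb from Tmem161b. An annotated microRNA gene, CT033785.1, lay nearer, at 114 kb. The RefSeq start of the long non-coding RNA Gm17750 lay inside the region. This region held 442 and 621 reads, and its FC over CON was 0.838 (0.740–0.948) at a GC content of 39.7%. The fifth, 11 windows at chr8:129057001-129068000, lay 44.2 kb from Irf2bp2 and held 558 and 549 reads.

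The 5 regions farthest from any gene lay together at chr1:76388001-76432000, in the wide gap between Slc4a3, an anion exchanger, and Epha4, an ephrin receptor that guides axons and shapes dendritic spines. They were 709 to 752 kb from the nearest annotated gene, a 5S ribosomal RNA copy, and 932 to 975 kb from Epha4. The farthest held 43 FC and 44 CON H4K5ac reads, 6 and 6 IgG reads, and 26 and 18 input reads. The least covered of the group held 25 and 29 H4K5ac reads, with lower limits of the ratio to input of 1.38 in FC and 1.07 in CON.

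The windows were rarer farther from genes. The members lay a median of 35.7 kb from the nearest gene, beside 67.7 kb for all intergenic windows. Of intergenic windows at 10 to 20 kb from a gene 1.09% were members (1.04–1.14), at 50 to 100 kb 0.584% and beyond 500 kb 0.101% (0.0702–0.140). Nearer than 10 kb, where windows are no members, 4.12% met the same read rules. The deep intergenic windows that failed the ratio lay at a similar median distance, 37.3 kb. The share per chromosome ran from 3.52 members per 1000 intergenic windows on chromosome 4 to 9.31 on chromosome 18.

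**Figure D3:**
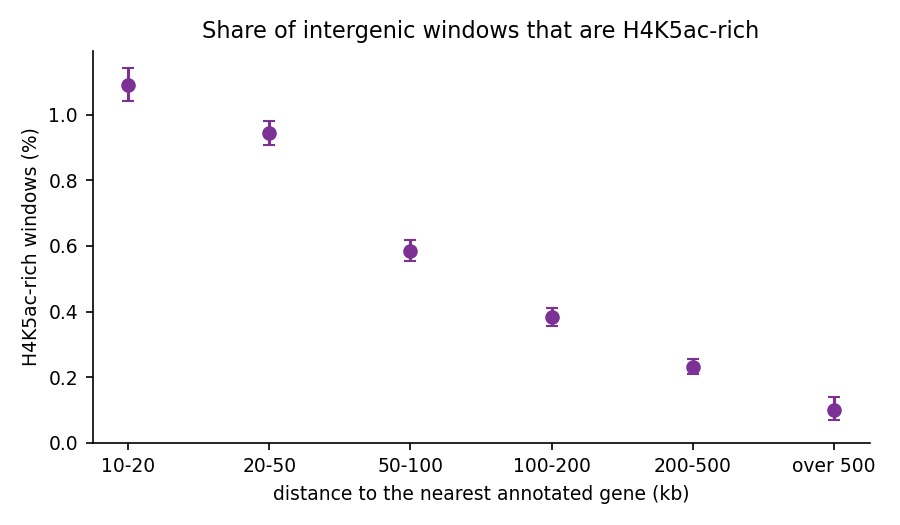
Share of sequenced intergenic windows that are H4K5ac-rich, in percent (y axis), by distance to the nearest annotated gene in kb (x axis), with exact 95% binomial limits. The share is 1.09% at 10 to 20 kb and 0.101% beyond 500 kb, lower in each step outward.

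The annotation left some genes short. RefSeq start sites, placed in mm9 by exact match of their sequence, were matched for 29102 of 31393 starts. Of the member windows 182 held such a start (2.67%, 2.30–3.08), beside 0.368% of all intergenic windows and 1.58% of deep intergenic windows that were not members. These starts belonged to 179 genes, 163 of them long non-coding RNAs and 16 protein-coding. None of these starts lay on chromosome 18, whose 421 member windows were still counted in the shares. Within 10 kb of a region a RefSeq start was found for 1001 of 4775 (21.0%), and 22.2% of member windows lay within 10 kb of one, beside 6.91% of all intergenic windows. Windows with a start held more CpG than the others, 19.7 against 11.4 per kb. Their ratio to input was 2.62 against 2.63 in FC, and in CON it was higher, 3.08 (2.94–3.22) against 2.85 (2.83–2.87). The rule used these ratios, so they are a description.

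Among the protein-coding starts, that of Cplx2 held 39 FC and 44 CON H4K5ac reads in its window and lay 74.7 kb from the nearest GENCODE gene. The start of Arhgap32 held 26 and 32 reads, and the start of B3galt1 29 and 21. The start of Nlgn1, the postsynaptic adhesion protein neuroligin 1, held 29 and 21 reads with ratios to input of 2.01 and 2.00, at the edge of the rule. The start with the highest FC ratio was that of Zfp72, a zinc finger gene, with 46 and 53 reads and ratios of 4.45 and 3.37.

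A RefSeq start upstream of a GENCODE gene of the same name places the stretch between them inside the gene. This held for 334 regions (6.99%) and for 439 member windows (6.44%), beside 1.16% of intergenic windows. Lsamp, a limbic system adhesion molecule of the neuronal membrane, took 68 of these regions. Celf2, an RNA-binding splicing factor of the brain, took 41, B3galt1 37, Nkain2 19, Tmem132b 19 and the potassium channel gene Kcnma1 17. Nkain2 was also annotated in GENCODE in separate pieces on both sides of 19 regions and Tmem132b on both sides of 8.

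Counted by the nearest protein-coding gene, the regions belonged to 1763 genes. Celf2 had 64 regions, Zfp608 52 and Lsamp 51. Irf2bp2 had 30 regions, in which 33.2% of its intergenic windows were members, and Tjp1 26 with 29.0%. The nearest gene of any kind was protein-coding for 65.2% of members and for 51.1% of intergenic windows. A nearest gene is a matter of position, and which gene a region acts on, if any, was not measured.

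The start sites of the genes of any kind nearest to a member carried more H4K5ac than those of genes nearest only to other intergenic windows. The reads within 2 kb of a TSS lie outside the members and were not used by the rule. The median log2 ratio of H4K5ac-ChIP to input, averaged over FC and CON, was 0.61 (0.58–0.65) at 2015 genes nearest to a member, and −0.17 (−0.20 to −0.14) at 13073 genes nearest to intergenic windows of which none was a member. For protein-coding genes the values were 0.77 (1347 genes) and 0.21 (8670 genes). The order held in each group, with 0.66 against 0.12 in FC and 0.88 against 0.26 in CON for protein-coding genes. These intervals are order-statistic limits over genes, which are not replicates. The sets of genes were not matched for distance to the windows, and genes nearest to deep windows that failed the ratio were not set apart.

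Genes of neuronal and glial function were grouped by lists, whose choice was made with earlier results of these data known. Over all intergenic windows 0.644% were members. Of windows nearest to 32 activity-induced genes, which neurons switch on within minutes to hours of firing, 65 of 3346 were members (1.94%), beside 0.741% in intergenic windows of the same distance and GC class. Plk2, a kinase that scales down synapses, supplied 32 of the 65, and without it the share was 1.13%. Sgk1, a kinase induced by glucocorticoids, had 5 regions, the immediate early transcription factor Fos 4, and Rgs2, a regulator of G protein signalling, 3.

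Of windows nearest to glial genes 1.87% were members beside 0.932% in the same classes. Qk, the RNA-binding protein quaking of oligodendrocytes and astrocytes, had 20 regions and the transcription factor gene Sox8 5, and without Qk the share was 0.557%. Neuronal marker genes had 1.12% beside 0.535%, with 13 regions at Rbfox1, a splicing factor, and 5 at Gria2, an AMPA receptor subunit. Without Rbfox1 the share was 1.18%. An upstream RefSeq start of Rbfox1 placed 15 regions inside that gene. Genes of other tissues had 0 of 98 windows, which allows a share of up to 3.69%.

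The remaining lists lay at or below the share of their distance and GC class. Forebrain transcription factors had 0.552% beside 0.593%, led by Zeb2 with 9 regions, Myt1l with 7, and Hivep2, Mef2c and Pou3f3 with 6 each. Klf9, a factor induced by glucocorticoids, and Tcf4 had 4 each, and Bcl11b and Prox1, a marker of dentate granule cells, 3 each. Receptors and channels had 0.331% beside 0.460%, led by Kcnma1 with 14 regions and the NMDA receptor gene Grin2b with 6. Gria2, which is also in the list of neuronal markers, had 5 regions and Gria1 4. Synaptic adhesion and axon guidance genes, which lie in the largest deserts, had 0.216% beside 0.304%, with 51 regions at Lsamp, 21 at Epha4, 10 at Nlgn1, 8 at Odz2, 7 at Kirrel3, 7 at Ncam1, 4 at Slitrk3 and 3 at Pcdh8. Without Lsamp the share of this list was 0.129%. In each list with members a few genes held most of the regions.

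The members were richer in G and C than the intergenic space, with 45.3% against 40.4%, and the deep windows that failed the ratio were richer still (46.3%). They held 11.6 CpG per kb against 6.86, and against 10.2 in intergenic windows of the same GC content. Windows of at least 50% GC and a CpG observed over expected of at least 0.6, as in CpG islands, were 52 of the members (0.763%) and 0.105% of intergenic windows.

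Short motifs of 10 factor families were counted on both strands, as a description of the letters present. Against intergenic windows of the same GC content, the members held the RFX letters GTTGCCATG in 2.00% of windows against 1.16%, the CTCF letters CCAGGGGGC in 1.14% against 0.704%, the ETS letters ACCGGAAGT in 0.381% against 0.212%, and the EGR letters GCGTGGGCG in 0.205% against 0.0849%, the last from 14 windows. The AP-1 letters TGAGTCA, bound by Fos and Jun, were in 19% (18.1–20) against 15.3%. The E-box letters CAGCTG were in 41.6% against 37%. The neuronal E-box letters CAGATG were in 58.6% (57.5–59.8) against 59.7%, which lies within the counting limits, and in 56.0% of all intergenic windows. The CRE letters TGACGTCA, bound by CREB, were in 0.865% (0.659–1.12) against 0.753%, which differed by less than the counting error. MEF2 letters CTATTTATA (1.47%) and homeobox letters TAATTA (25.8%) were less frequent than in the intergenic space as a whole (1.81% and 32.9%). They were more frequent than at the same GC content (1.10% and 22.5%), so their direction turned with the comparison. Deep windows that failed the ratio held RFX (1.77%), CTCF (1.01%), AP-1 (19.5%), ETS (0.305%) and EGR (0.127%) letters at shares within the members' counting limits, and E-box letters (43.9%) and neuronal E-box letters (61.8%) more often than the members. The plot of motif shares sets both comparisons side by side.

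**Figure D4:**
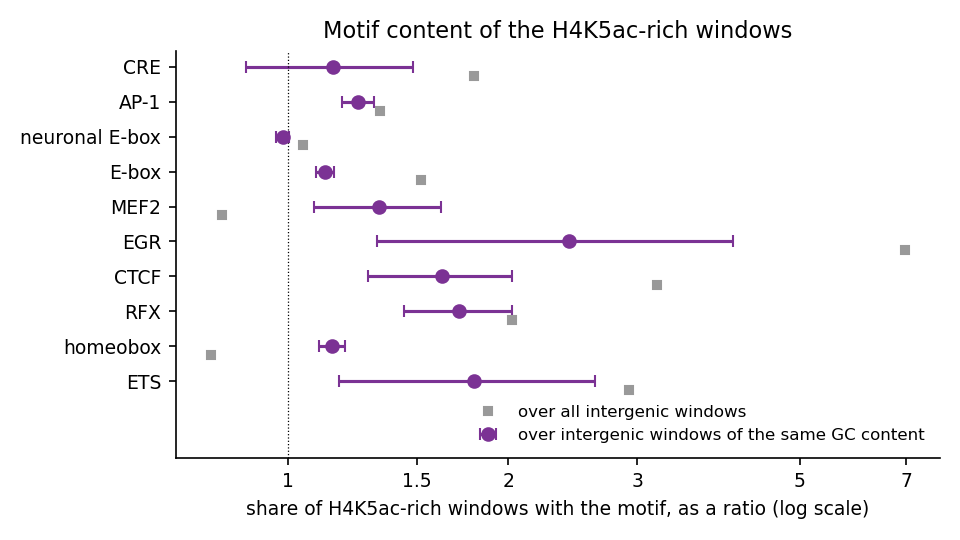
Share of H4K5ac-rich windows that hold each of 10 motifs, as a ratio (x axis, log scale) to intergenic windows of the same GC content (circles, with exact 95% binomial limits of the members' share) and to all intergenic windows (squares). RFX stands at 1.71 at the same GC content, and the MEF2, homeobox and neuronal E-box motifs lie on different sides of 1 in the 2 comparisons. The limits of the neuronal E-box motif at the same GC content include 1.

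Reads around the motif matches inside members showed small differences. The matches lie in windows chosen for much H4K5ac and little input, and the stretches 200 to 400 bp away can reach outside these windows. The rule by itself thus favours more H4K5ac, and less input, near a match than in these stretches. Within 100 bp of 1453 AP-1 matches the pooled H4K5ac density was 1.05 times that at 200 to 400 bp (1.03–1.07), with 1.07 in FC and 1.03 in CON, and input was at 0.996 times. The H4K5ac ratio was similar at 6146 neuronal E-box matches, 1.06 (1.05–1.06), and at 3873 E-box matches, 1.04 (1.03–1.05), with input at 1.02 and 1.01. At 80 CTCF matches it was 0.914 (0.852–0.981), and input was at 0.932 (0.841–1.03). At 15 EGR matches it was 0.699 (0.589–0.827), from 187 reads near the match, and input was at 0.990 (0.771–1.26). At homeobox matches both were lower near the match, with limits of 0.937 and 0.964 for H4K5ac and 0.796 and 0.831 for input, and these letters are AT-rich.

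FC and CON were close at the members. Median log2 FC over CON was 0.12 over the 6817 windows, and 63.5% of them were higher in FC. For windows of 45 or more pooled reads at large the median was 0.05, with 55.2% higher in FC. Summed over the members, log2 FC over CON was 0.12 (0.11–0.13) for H4K5ac, −0.05 for IgG and 0.24 for input. Input and H4K5ac took part in the rule in both groups, so these summed values are a description.

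Few members differed by 2-fold. The rule asks for signal over input in both groups, which by itself keeps out windows with signal in FC or CON alone. FC was at least 2 times CON in 45 windows (0.660%), where the background over all 43863 deep intergenic windows was 1.21%, and CON at least 2 times FC in 25 (0.367%), where the background was 0.955%. The members held more reads than the background, a median of 70 pooled reads against 54, and both shares lay below it. Scaled by the median ratio of the deep intergenic windows the counts were 29 and 28, and with the log2 ratio of input subtracted 150 and 211, so the order of FC and CON depended on the scaling. At 1.5-fold there were 553 members higher in FC (8.11%, background 9.75%) and 231 higher in CON (3.39%, background 6.72%).

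The ratio moved with base composition. At members under 40% GC the summed log2 FC over CON of H4K5ac was −0.14 (−0.16 to −0.12), at 40 to 45% 0.05, at 45 to 50% 0.18 and at 50% and above 0.28 (0.27–0.30). Input moved the same way and further, from −0.37 through 0.10 and 0.37 to 0.59. IgG ran from −0.03 to −0.09. All deep intergenic windows, members included, moved likewise. Over the same classes their H4K5ac ran from −0.08 through 0.005 and 0.08 to 0.16, and their input from −0.49 through 0.09 and 0.46 to 0.66. The part of base composition in the FC and CON difference of single windows was not tested.

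Among 1263 regions of 100 or more pooled reads FC over CON ran from 0.604 to 2.01 with a median of 1.09, and 1 passed 2-fold. That region, chr19:42567001-42569000, lay 24.2 kb from D19Ertd386e and 60.7 kb from Crtac1, an extracellular matrix protein, and held 82 FC and 48 CON H4K5ac reads, 11 and 9 IgG reads, and 50 and 18 input reads. Its FC over CON was 2.01 (1.39–2.93). Input there was also higher in FC, at 0.636 rpm per kb against 0.296 in CON. H4K5ac over input was 2.38 in FC and 2.55 in CON. The others at the upper end were the region near Cdk19 at 1.83 (1.29–2.63), one near BC024139 and Plec at 1.80 (1.32–2.47), one 143 kb from Wdr11 at 1.73 and one between the pieces of Tmem132b at 1.72. The region between the pieces of Tmem132b held the RefSeq start of the long non-coding RNA Gm32811. GC content was 48.0% to 53.4% in these 5 regions.

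At the lower end lay chr8:55920001-55923000, 110 kb from Wdr17 and 117 kb from Gpm6a, a neuronal membrane glycoprotein. The ribosomal RNA gene n-R5s98 lay nearer, at 28.6 kb. The region held 59 FC and 115 CON H4K5ac reads, 20 and 27 IgG reads, and 22 and 41 input reads. Its FC over CON was 0.604 (0.433–0.833). Input there was also lower in FC, at 0.187 rpm per kb against 0.450 in CON. H4K5ac over input was 3.89 in FC and 2.68 in CON. The next lay 93.8 kb from Pam, which amidates neuropeptides, at 0.613 (0.427–0.872), and near Gm9766 at 0.649. Then came regions 209 kb from Celf2 at 0.655 and 513 kb from Slc4a3 at 0.662 (0.427–1.01). A U6 RNA gene lay nearer than Celf2, at 58.7 kb, and the pseudogene Gm5257 nearer than Slc4a3, at 438 kb. The region near Gm9766 held the RefSeq start of the long non-coding RNA Gm46225. GC content was 34.6% to 43.9% in these 5 regions, below each of the 5 highest. Since the regions were picked for their ratio, these values are descriptions.

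**Figure D5:**
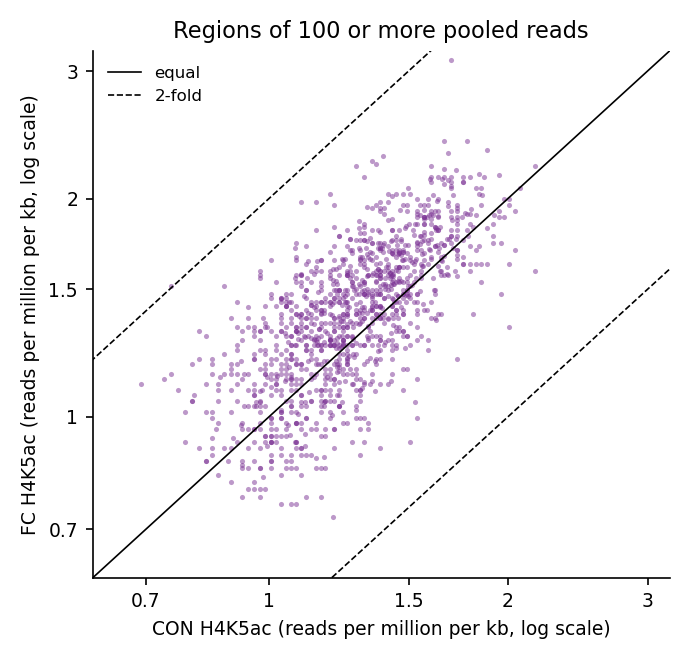
H4K5ac-ChIP level in rpm per kb in FC (y axis) against CON (x axis), both on log scales, for the 1263 regions of 100 or more pooled reads, 1 point per region. The solid line marks equal levels and the dashed lines 2-fold, and 1 region lies past 2-fold.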

How the data were processed

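Hippocampal ChIP-seq reads of mouse were taken as the authors deposited them. Per the methods of the study, 50-bp SOLiD reads were aligned to mm9 with Bioscope. Each deposited record carries the position and strand of a read and a score, taken here as that of the alignment. The score served as a filter in an alternative and to describe the reads at the members. The records are single reads without normalization, and repeated reads had not been removed. Samples were grouped by their labels, with 1 library per group and antibody.

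Reads were reduced to 1 per 5′ position and strand, assigned by midpoint to windows of 1 kb and scaled to the distinct reads of all chromosomes. Repeated reads were 11.5% to 17.8% of a library, and depth was thus 11953514 to 39283801 distinct reads. Genes were the GENCODE vM1 intervals of mm9, and windows of the comparison set had at most 500 unknown bases. Comparisons at the same GC content weighted intergenic windows in classes of 1%. RefSeq starts, from a table of the GRCm38 assembly, were placed in mm9 only by 31-base matches at 1 place of the same chromosome, and no coordinate of that table was used. Printed promoter sequences are credited to RefSeq and are identical in mm9. Intervals are exact binomial or Poisson limits at 95%. Log2 ratios at start sites used a pseudocount of 1 read.

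No test between groups was made, since each group had 1 library. The regions named are the 10 with most pooled reads per kb, the 5 with most windows, the 5 farthest from a gene, the 5 highest and 5 lowest in FC over CON among those of 100 or more reads, and windows at each threshold. Genes named beside regions are the nearest protein-coding ones on either side, and for some regions a nearer gene of another type is given. Also named are list genes nearest to 3 or more regions. Chosen after their values were seen were the genes with RefSeq starts, those with the most regions, and those beside the largest groups. Members and lists were chosen with earlier results of these data known. Alternatives changed the reads, scaling, thresholds, distance, genes, grid and control library. The scripts were tested on simulated counts. Python 3.11.15, NumPy 2.4.6, pandas 2.3.3, SciPy 1.17.1, numba 0.67.0 and matplotlib 3.10.9 were used. Repeat annotation was not used here.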

Additional observations from a re-analysis of the deposited data

How the results depend on the processing

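The 6817 windows became 19874 at a ratio to input of 1.5, 732 at a ratio of 3, 2487 at 50 kb from genes, 15464 with IgG-IP in place of input and 14811 with input rescaled by GC content. The GC-rescaled set shared 6242 windows with the members (91.6% of the members, 42.1% of that set) and the IgG set 4123 (60.5% and 26.7%). The other 10 alternatives gave 4969 to 8414. The mean IgG ratio of members to intergenic windows, 1.09, was 1.10 at a score of 20 or more, 1.11 at a ratio of 1.5, 1.06 at a ratio of 3 and 1.12 at 50 kb.

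The number of windows in the set differed among the alternatives, and background shares were not computed for the other sets. The 45 of 6817 windows with FC at least 2 times CON became 101 of 8298 with all deposited reads and 29 of 4969 at 60 pooled reads. They became 149 of 19874 at a ratio of 1.5, 2 of 732 at a ratio of 3 and 17 of 2487 at 50 kb. With IgG-IP as control the count was 113 of 15464, and with input rescaled by GC 71 of 14811. Among the 6817 members it was 553 at 1.5-fold and 29 after scaling by the median ratio of deep intergenic windows. It was 150 less the log2 ratio of input and 1060 less that of IgG-IP. As merged regions it was 24 of 4775. Subtracting single-window control ratios adds their counting error. With the median of windows of the same GC content subtracted, 31 windows were higher in FC and 10 in CON.

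The median log2 ratio at the nearest TSS, 0.61, was 0.68 at 60 reads, 0.55 at a ratio of 1.5, 0.77 at a ratio of 3, 0.66 at 5 kb, 0.42 at 50 kb, 0.76 with protein-coding genes only, 0.56 with IgG-IP, 0.57 with input rescaled by GC and 0.52 within 5 kb of the TSS. GC content, 45.3%, was 44.9% with all reads, 44.4% at 30 and 46.5% at 60 pooled reads, 45.5% and 45.1% at ratios of 1.5 and 3, 45.6% and 43.8% at 5 and 50 kb, 45.6% with protein-coding genes, 47.3% with IgG-IP, 47.0% with GC-rescaled input and 45.1% over whole regions. Median distance, 35.7 kb, was 37.3 kb with all reads, 37.5 and 33.4 kb at 30 and 60 reads, 37.3 kb at a ratio of 1.5, 27.0 and 97.3 kb at limits of 5 and 50 kb, 46.3 kb to protein-coding genes, 33.3 kb with IgG-IP and 33.9 kb with GC-rescaled input. The cause of these differences was not tested.

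The number of windows higher in CON, 25 of 6817 under the main rule, exceeded the number higher in FC at 30 pooled reads (66 against 53 of 7974). The same held at a ratio of 3 (4 against 2 of 732) and less the log2 ratio of input (211 against 150 of 6817). With median scaling the numbers were 28 in CON and 29 in FC, of 6817. The IgG ratio stayed above 1 and the log2 ratio at the nearest TSS above 0 in each alternative run for them, and log2 FC over CON was not recomputed under the alternatives. No IgG ratio was given with IgG-IP as control, since the rule then uses it. No paired analysis was possible because each group and antibody has 1 library. With a median of 12 CON input reads per member, a window of median depth cannot be placed firmly on one side of the ratio.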

Other observations

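The input libraries differed in how their reads were spread over base composition, and the rule compares H4K5ac with input. Over intergenic windows the FC input library held 0.165 rpm per kb below 35% GC and 0.606 at 50 to 55%, whereas the CON input library held 0.367 and 0.388. The share of deep intergenic windows that became members was 48.6% below 35% GC, 12.2% at 45 to 50% and 27.8% at 55% and above. Below 35% GC and at 50 to 55% the FC H4K5ac-ChIP library held 0.154 and 0.523, and the CON library 0.175 and 0.476. The IgG-IP libraries ran the other way, with 0.436 and 0.346 in FC and 0.423 and 0.358 in CON.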
